A study of Mus musculus with 6 samples.

Results

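The genes described here are 9 transcription factor genes that specify or maintain forebrain GABAergic neurons: Sp8, Sp9, Zfhx3, Six3, Lhx6, Lhx8, Isl1, Meis2 and Dlx1. They were taken by gene name from a table of 29547 rows, and all 9 were found. The list was drawn up with the difference between CS and Con in these data known, so that difference is given for them as a description and supports nothing. The row of Cir1 is given as well, because it overlaps that of Sp9.

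The libraries hold RNA that came down with ribosomes whose S6 protein was phosphorylated, from the mouse vBNST, the ventral part of the bed nucleus of the stria terminalis, which is a part of the extended amygdala made up largely of GABAergic neurons. There were 3 libraries labelled CS and 3 labelled Con, all from vBNST, prepared 90 min after a test with a CS+ or a CS- cue. The labels leave unsaid which cue the CS libraries followed and what the Con mice received, and they give no genotype, strain, age or treatment of either group. Separate mice are not stated for the libraries of either group, so a p-value here speaks of the spread among libraries, and that spread may be technical. Precipitation of phosphorylated ribosomes is meant to favour active neurons, but no library is labelled as input RNA, so enrichment could not be measured here.

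GABAergic neurons of the forebrain arise from the ganglionic eminences of the embryo, where Dlx factors start the programme. Lhx6 and Lhx8 act in the medial eminence, Isl1, Six3, Sp8, Sp9 and Meis2 in the lateral and caudal ones, and many of these factors stay on in the adult neuron, where they keep up its identity. In adult neurons they are read as marks of lineage: Lhx6 of interneurons and amygdalar neurons of medial origin, Lhx8 and Isl1 of cholinergic neurons, Six3, Sp9 and Isl1 of striatal projection neurons.

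Of the 9 genes, 4 lie on chromosome 2 (Lhx6, Dlx1, Sp9 and Meis2), which holds 7.99% of the rows of the table. In GRCm38 the Sp9 row runs along the plus strand of chr2:73271925-73284706, 1737944 bases beyond the end of Dlx1 (chr2:71528113-71533981, plus strand). Lhx6 lies at chr2:36081953-36105408 and Meis2 at chr2:115863064-116065839, both on the minus strand. The others are Lhx8 at chr3:154306294-154330659 (minus strand), Zfhx3 at chr8:108703100-108961630 (plus strand), Sp8 at chr12:118846329-118852578 (plus strand), Isl1 at chr13:116298281-116309689 (minus strand) and Six3 at chr17:85613608-85629302 (plus strand). All 9 are protein-coding in RefSeq.

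The 250 bases before the start of Sp9, Six3 and Zfhx3 are shown because these 3 genes had lower levels in every CS library than in every Con library (values below) and because the sequences differ in how many short motifs of the factors' own families they hold. Sequences are from RefSeq (GRCm38.p6), 5′ to 3′ on the plus strand, which is the strand of all 3 genes. Capitals mark 3 motifs, each also as its reverse complement. TAAT is the core bound by many homeodomain proteins. TGACAG is the core bound by Meis and its relatives. GGGCGG is the GC box bound by Sp proteins. No motif holds another.
Sp9, chr2:73271676-73271925: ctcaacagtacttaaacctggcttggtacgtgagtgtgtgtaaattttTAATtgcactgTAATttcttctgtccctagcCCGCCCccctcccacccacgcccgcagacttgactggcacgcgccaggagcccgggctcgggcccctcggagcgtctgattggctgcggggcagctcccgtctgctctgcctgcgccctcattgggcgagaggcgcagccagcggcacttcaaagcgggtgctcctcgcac
Six3, chr17:85620584-85620833: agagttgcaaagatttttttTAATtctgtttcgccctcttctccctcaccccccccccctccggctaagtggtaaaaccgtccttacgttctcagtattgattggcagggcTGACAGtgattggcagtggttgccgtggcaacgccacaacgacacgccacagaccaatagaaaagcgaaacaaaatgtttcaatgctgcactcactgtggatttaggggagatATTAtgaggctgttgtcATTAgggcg
Zfhx3, chr8:108714394-108714643: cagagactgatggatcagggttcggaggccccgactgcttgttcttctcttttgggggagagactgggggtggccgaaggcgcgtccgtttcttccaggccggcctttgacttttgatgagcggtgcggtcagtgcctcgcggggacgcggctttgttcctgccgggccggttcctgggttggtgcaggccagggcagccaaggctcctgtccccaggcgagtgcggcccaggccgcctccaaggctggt
The Sp9 sequence holds 2 TAAT cores and 1 GC box, the Six3 sequence 3 TAAT cores and 1 TGACAG, and the Zfhx3 sequence none of the 3 motifs. Over all 9 genes, with the most upstream start used where the promoter table lists several (Sp8 and Lhx6), TAAT was found in 5 (Sp8, Sp9, Six3, Isl1 and Meis2), TGACAG in 2 (Sp8 and Six3) and GGGCGG in 2 (Sp9 and Lhx6). Among 27025 promoters of the same length the shares were 55.4%, 15.9% and 33.0% in that order. GC content was 62.4% for Sp9, 48.8% for Six3 and 66.0% for Zfhx3, against a median of 52.0% over all promoters. A match is a match of letters in this window and does not show binding. The starts are those of the promoter table and are not always the outermost base of the RefSeq gene. RefSeq begins Zfhx3 at chr8:108279311, far upstream of the window shown. For Six3 and Zfhx3 the start lies inside the row, at the first base of the second exon block. The windows of Dlx1 and Meis2 also lie inside their rows, with 250 and 170 bases in exons, and 99 bases of the Lhx8 window are exonic.

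The table gives RPKM, that is reads per kilobase of row length and per 1000000 assigned reads. Libraries held 1578775, 1365181 and 2342686 assigned reads (CS) and 765769, 1200995 and 1427784 (Con), so the members rest on few reads, between 13 (Sp8) and 1027 (Zfhx3) over all 6 libraries. Levels below are RPKM after median scaling, which divides each library by its median deviation from the row means. As deposited, the CS libraries lay above Con by 0.37 (log2), which this scaling took out. Differences are CS minus Con on the log2(RPKM + 0.1) scale with their standard errors, from a limma fit over the 20550 rows whose RPKM averaged 0.5 or more. Of the 9 members 8 passed this filter and Sp8 did not. In such bulk samples without input RNA, fewer cells of a type, less RNA per cell and less RNA brought down with the ribosomes cannot be told apart.

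Among the tested rows 0.968% were called at a Benjamini-Hochberg adjusted p under 0.05, 0.793% lower and 0.175% higher. Of the members that passed the filter limma called 0, while 5 were lower at an unadjusted p under 0.05, a level that 8.77% of all rows reached in that direction. In the other direction 774 of the 20550 tested rows reached that level. The limma adjusted p of the members ran from 0.0879 (Sp9) to 0.973 (Lhx8). Fitted by voom on the reads recovered from the table, which uses rows with at least 60 reads, 4 of 7 members were lower in CS (Sp9, Zfhx3, Lhx6 and Meis2) and 0 higher, where 6.16% of all rows were called lower and 0.268% higher. When library totals replaced the median scaling, voom called none of the 7 (2.42% of all rows lower, 2.6% higher), and their limma voom adjusted p lay between 0.0932 (Six3) and 0.756 (Dlx1). Because the members were picked on this contrast, nothing is read from these counts. Levels of all 3 CS libraries lay below all 3 Con libraries in 5 of the 9 genes, Sp9, Zfhx3, Six3, Lhx6 and Meis2. The same 5 were apart after median scaling, as 15.4% of all tested rows were in this direction (7.57% in the other), and for the RPKM as deposited (6.5% and 18.5%). In the other direction 0 of the 9 were apart after scaling, and as deposited 2 were, Sp8 and Lhx8.

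Sp9 encodes a zinc finger factor of the Sp family that is needed for striatopallidal neurons and for interneurons of the olfactory bulb. It stood at 6.21, 5.57 and 4.84 RPKM in the CS libraries, against 10.6, 12.6 and 11.0 RPKM in the Con libraries. The groups were apart by more than the spread within either of them, with a log2 difference of -1.03 ± 0.20 SE. The reads behind these levels numbered 55, 43 and 69 in CS and 36, 74 and 64 in Con.

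Cir1, which encodes a corepressor that binds the Notch effector CBF1, runs on the minus strand at chr2:73283105-73312701. Its last exon covers the last exon of the Sp9 row, 270 bases or 5.35% of the Sp9 row length. RefSeq ends Sp9 at base 73275771, ahead of that exon. Cir1 had 11.2, 12.6 and 13.5 RPKM in CS and 17.8, 21.2 and 8.74 RPKM in Con. Con library 3 lay under all CS libraries and the other Con libraries above them, so the groups overlapped (-0.27 ± 0.34 SE, and 0.10 as deposited). How many reads of Sp9 fall in the shared bases cannot be read from the table. Sp9 over Cir1, as the ratio of their RPKM within a library, was 0.556, 0.441 and 0.360 in CS against 0.593, 0.594 and 1.25 in Con. Every CS ratio was below every Con ratio, though CS library 1 and Con libraries 1 and 2 lay close together.

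Sp8, the close relative of Sp9 that marks interneurons of caudal and lateral origin, had hardly any reads: 3, 2 and 6 in CS and 0, 0 and 2 in Con. Its share of reads was 3.53-fold higher in CS with an exact 95% counting interval of 0.771 to 32.8, which includes equal shares. Shares are of all assigned reads, without the median scaling. After scaling, the ratio of mean Sp8 RPKM was 2.98, CS over Con. As deposited every CS library lay above every Con library, and after scaling the groups overlapped. A Con library without a read allows up to 3 reads, or 0.874 and 0.558 RPKM as deposited in Con libraries 1 and 2. As deposited, CS libraries 1 to 3 stood at 0.424, 0.327 and 0.572 RPKM, so these limits reach into or above the CS range. Intervals and such limits cover counting error only.

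Of the other Sp family genes 4 passed the filter, and all 4 had estimates above 0, with a median of 0.48, also as deposited (0.85) and with quantile normalization (0.40). None was called by limma (0 at an unadjusted p under 0.05, and 0 of 3 by voom). Sp1 (0.56 ± 0.51 SE) and Sp3 (0.40 ± 0.32) are ubiquitous activators, and Sp2 (0.71 ± 1.40) and Sp4 (0.03 ± 0.51) are further members. Sp6 and Sp7 had 6 and 5 reads in all.

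Zfhx3 encodes a very large zinc finger and homeodomain protein that promotes neuronal differentiation and also sets circadian output in the suprachiasmatic nucleus. With 170, 123 and 239 reads in CS and 103, 222 and 170 in Con it is the best measured of the 9. It had 5.51, 4.57 and 4.82 RPKM in CS, against 8.67, 10.9 and 8.35 RPKM in Con. The highest CS library stayed well under the lowest Con library, with a log2 difference of -0.89 ± 0.22 SE. On the same strand, inside its introns, the rows Gm38042 and Gm38318 held 20 and 8 reads and shared no exonic base with it.

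Six3 encodes a homeodomain factor of the eye and ventral forebrain that is needed for striatopallidal neurons. It had 0.523, 0.600 and 1.37 RPKM in CS, against 4.35, 2.37 and 3.49 RPKM in Con. The difference was the largest of the 9 in size, -2.01 ± 0.52 SE, on 5, 5 and 21 reads in CS and 16, 15 and 22 in Con. CS library 3 held most of the CS reads, and with 1 library left out the estimate lay between -2.39 (without that library) and -1.76 (without CS library 1). The antisense row Six3os1 overlaps Six3 in 106 exonic bases and had 0.719, 0.769 and 0.745 RPKM in CS and 0.747, 0.506 and 0.654 RPKM in Con. The groups of Six3os1 overlapped after scaling (0.17 ± 0.60 SE, limma adjusted p = 0.934). As deposited, every CS library of Six3os1 lay above every Con library.

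Lhx6 encodes the LIM homeodomain factor that medial eminence interneurons need to migrate and to mature. It had 7.59, 11.8 and 5.16 RPKM in CS, against 16.0, 16.3 and 16.5 RPKM in Con. The Con libraries were nearly equal and the CS libraries spread over more than the distance from the top one to Con (log2 difference -1.07 ± 0.31 SE). With 1 library left out the estimate lay between -1.36 (without CS library 2, the one nearest Con) and -0.78 (without CS library 3). Reads numbered 64, 87 and 70 in CS and 52, 91 and 92 in Con.

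Lhx8, the relative of Lhx6 that directs cholinergic neurons of the basal forebrain, had groups that overlapped after scaling. Lhx8 had 10.3, 11.6 and 7.41 RPKM in CS and 9.93, 8.82 and 10.6 RPKM in Con. The means were nearly equal, 9.79 ± 2.15 in CS and 9.77 ± 0.884 in Con (SD, n = 3 each), with a log2 difference of -0.02 ± 0.23 SE. As deposited it was 0.35, with every CS library above every Con library, so the sign of the Lhx8 estimate depends on the scaling. The ratio of Lhx6 to Lhx8 within a library needs no scaling between libraries: it was 0.733, 1.02 and 0.696 in CS, against 1.61, 1.84 and 1.56 in Con. Lhx6 thus had the higher RPKM of the pair in all Con libraries, and in CS only in library 2, where they were nearly equal. This pair and the other ratios were chosen after values were seen.

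**Figure D1:**
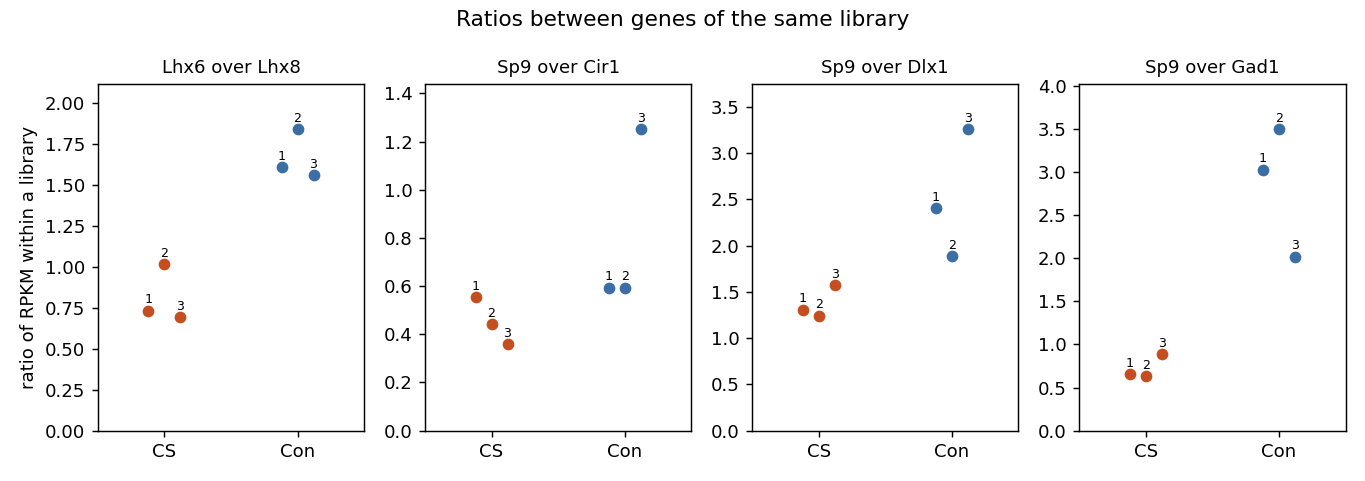
Ratio of RPKM between 2 genes of the same library (vertical axis, linear, from 0) in CS and Con libraries. Points are libraries, numbered by replicate. All 4 ratios are lower in every CS library than in every Con library, for Lhx6 over Lhx8 at most 1.02 in CS and at least 1.56 in Con. The pairs were chosen after values were seen, with Lhx6 or Sp9 on top, so their separation supports nothing. Of the ratios not drawn, Lhx6 over Sst was also apart, and Meis2 over Zfhx3 and Gad1 over Gad2 overlapped.

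Isl1 encodes a LIM homeodomain factor of striatonigral and cholinergic neurons. It had 0.432, 1.98 and 1.25 RPKM in CS and 1.87, 0 and 1.09 RPKM in Con, on 3, 12 and 14 reads and 5, 0 and 5 reads. The libraries of each group covered nearly the whole range of both. Its estimate (0.85 ± 1.26 SE) is set by Con library 2, which held no read, a count that allows up to 0.631 RPKM as deposited. Without that library the estimate was -0.47, with a limma adjusted p of 0.822. The ratio of its read shares, without the median scaling, was 1.86, CS over Con, with an exact 95% counting interval of 0.882 to 4.28. After scaling, the ratio of mean Isl1 RPKM was 1.24.

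Meis2 encodes a homeodomain cofactor of the TALE class that pairs with Pbx and Dlx proteins and marks lateral eminence derivatives. It had 4.92, 4.34 and 2.79 RPKM in CS, against 6.39, 9.77 and 7.02 RPKM in Con (log2 difference -0.95 ± 0.31 SE). All CS libraries lay below all Con libraries, CS library 3 furthest. Meis2 over Zfhx3 within a library was 0.892, 0.949 and 0.580 in CS and 0.737, 0.900 and 0.841 in Con, so this pair kept overlapping ratios.

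Dlx1 encodes a homeodomain factor at the head of the GABAergic programme, and adult interneurons keep it. It had 4.75, 4.48 and 3.08 RPKM in CS and 4.39, 6.69 and 3.36 RPKM in Con. The groups overlapped, with a log2 difference of -0.20 ± 0.35 SE that was 0.17 as deposited. Dlx1as, a row on the opposite strand that shares 335 exonic bases with Dlx1 (6.21% of its length), held 17, 10 and 2 reads in CS and 0, 13 and 6 in Con. The groups of Dlx1as overlapped too, and how many of its reads belong to Dlx1 was not measured. Sp9 over Dlx1, both on chromosome 2, was 1.31, 1.24 and 1.57 in CS, against 2.41, 1.88 and 3.26 in Con.

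Of the other Dlx genes, Dlx2 (0.24 ± 0.42 SE, 40 reads) and Dlx5 (0.27 ± 0.46, 32 reads) had overlapping groups after scaling. As deposited, every CS library of Dlx2 lay above every Con library (0.61), and the Dlx5 groups overlapped. Dlx6, the neighbour of Dlx5, had 2.40, 2.20 and 2.68 RPKM in CS, against 5.60, 5.43 and 2.91 RPKM in Con. Every CS library of Dlx6 was below Con, Con library 3 only just above CS, and as deposited the groups overlapped (-0.87 ± 0.35 SE, limma adjusted p = 0.386).

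**Figure D2:**
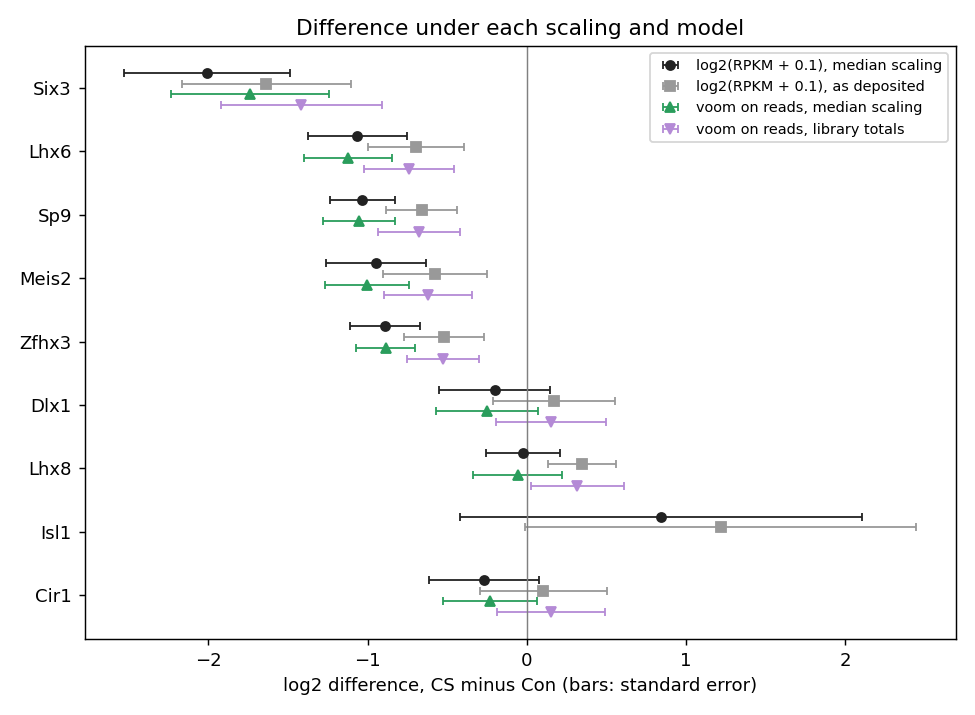
Log2 difference, CS minus Con, of the 8 members that passed the filter and of Cir1, with bars for the standard error, from log2(RPKM + 0.1) with median scaling and as deposited and from voom on recovered reads with median scaling and with library totals. Isl1 had too few reads for voom. Six3, Lhx6, Sp9, Meis2 and Zfhx3 lie below 0 in all 4, while Dlx1, Lhx8 and Cir1 change sign with the scaling.

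Levels per kilobase were ordered as follows. In CS the order ran Lhx8 (9.79 RPKM on average), Lhx6 (8.19), Sp9 (5.54), Zfhx3 (4.97), Dlx1 (4.10), Meis2 (4.02), Isl1 (1.22), Six3 (0.829) and Sp8 (0.382). In Con it ran Lhx6 (16.3), Sp9 (11.4), Lhx8 (9.77), Zfhx3 (9.29), Meis2 (7.73), Dlx1 (4.81), Six3 (3.40), Isl1 (0.986) and Sp8 (0.128). Most neighbours had overlapping ranges. The ranges were apart between Meis2 and Isl1 and between Six3 and Sp8 in CS, and between Lhx6 and Sp9 and between Six3 and Isl1 in Con. Averaged over the 6 libraries, Lhx6 was above 84.2% and Isl1 above 23.2% of the tested rows.

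Over the members that passed the filter the median difference was -0.92 on the log2 scale, against 0.03 over all tested rows. As deposited it was -0.55 against 0.41, and with quantile normalization -0.76 against 0.16. The 4 rows with at least 200 reads whose profile over the 6 libraries was nearest to the mean profile of the members were Prmt8, Svip, Samd4 and Shc4, at root mean square distances of 0.061, 0.076, 0.078 and 0.079 on the log2 scale (median 0.467 over 5038 rows compared). Prmt8 is an arginine methyltransferase of neurons, Svip a small inhibitor of protein degradation at the endoplasmic reticulum, Samd4 an RNA-binding repressor and Shc4 an adaptor of receptor tyrosine kinases. Sp9 itself was at 0.304 and Zfhx3 at 0.311 from that mean, nearest of the members, and Isl1 furthest at 1.51. The mean profile includes Isl1, which stood at -3.03 in Con library 2, where it had no read. In that library the mean was 0.088, against 0.524 and 0.386 in Con libraries 1 and 3. All 4 nearest rows were likewise lowest of Con in library 2. Sp9, Zfhx3, Meis2 and Dlx1 were highest of Con there, and Six3 and Lhx8 lowest. The nearest rows thus depend on that library of Isl1.

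As a background for the counts of the gene lists, 9865 of the 20550 tested rows had a lower and 10685 a higher estimate. As deposited 6902 of these rows were lower and 13648 higher. A wider set of 32 GABAergic lineage factors outside the 9, likewise written down with earlier results known, was checked in the same fit. Of 30 that were tested 20 had a lower and 10 a higher estimate, with a median of -0.25 (0.12 as deposited, with 14 lower, and -0.57 with quantile normalization). By limma 1 was called lower and 0 higher, and by voom 6 of 22 were lower and 0 higher. Zic1, a zinc finger factor of the septum and ventral forebrain, had 11.0 ± 2.02 RPKM in CS and 24.7 ± 3.78 RPKM in Con (SD, n = 3 each). It was not called by limma (adjusted p = 0.0703). Voom called Zic1 lower with median scaling (limma voom adjusted p = 0.0106) but not with library totals (0.0537).

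Of 17 genes for partner proteins of these factors (Ldb and Lmo for LIM factors, Pbx and Pknox for Meis, Tle corepressors for Six3), 9 had a lower and 8 a higher estimate, with a median of -0.02 that was 0.35 as deposited and 0.01 with quantile normalization. By limma 1 was called lower and 0 higher, and by voom 2 of 13 lower. The called gene was Tle3, a Groucho corepressor. Tle3 had 25.0, 26.0 and 18.5 RPKM in CS, against 58.3, 63.3 and 61.8 RPKM in Con. It fell in CS by 1.41 on the log2 scale (± 0.17 SE, limma adjusted p = 0.028). The limma call was lost for the RPKM as deposited (0.0791), with quantile normalization (0.0636), without the variance trend (0.155), with the replicate number as a block (0.269) and without each library but Con library 2 (0.0753 to 0.137). Voom called Tle3 lower with median scaling and with library totals (limma voom adjusted p = 0.00112 and 0.0111). Ldb1, the protein that joins LIM factors into complexes, had 17.1 ± 1.05 RPKM in CS and 31.0 ± 7.15 RPKM in Con (SD, n = 3 each), called by voom with median scaling (limma voom adjusted p = 0.0412) but not by limma (adjusted p = 0.143). With library totals the voom estimate was -0.45 and the call was lost (0.228).

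Genes that make and handle GABA were read beside the factors. Of 6, 5 had estimates above 0 and 1 below (median 0.16, or 0.53 as deposited), and limma called 0 (at an unadjusted p under 0.05, 1 higher and 1 lower). Voom called 1 lower. Gad1, which makes GABA, had 9.47, 8.80 and 5.47 RPKM in CS, against 3.48, 3.60 and 5.42 RPKM in Con (0.89 ± 0.32 SE, limma adjusted p = 0.322). The lowest CS library and the highest Con library of Gad1 nearly met, and voom called it higher with library totals alone (limma voom adjusted p = 0.0341). Sp9 over Gad1 within a library was 0.656, 0.632 and 0.886 in CS, against 3.03, 3.50 and 2.02 in Con. Gad2 (0.17 ± 0.21) and the vesicular transporter Slc32a1 (0.16 ± 0.37) had overlapping groups after scaling. As deposited, every CS library of Gad2 lay above every Con library (0.54), as in 18.5% of all tested rows. The Slc32a1 groups overlapped as deposited too.

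Genes of the neuron classes that these factors mark went both ways, and limma called 0 in each list. In the medial eminence interneuron list, 4 of 7 lay lower (median -0.04, or 0.33 as deposited), and at an unadjusted p under 0.05 there were 0 lower and 1 higher, with 0 called by voom. Sst, a peptide of many Lhx6 neurons, had 72.3, 66.5 and 33.7 RPKM in CS, against 17.3, 25.8 and 30.3 RPKM in Con, every CS library above Con (1.19 ± 0.35 SE, limma adjusted p = 0.223). Lhx6 over Sst within a library was 0.105, 0.178 and 0.153 in CS, against 0.926, 0.630 and 0.546 in Con. Kcnc1, the potassium channel of fast-spiking cells, had -0.50 ± 0.23 SE. In the cholinergic list 4 of 6 were lower in estimate (median -0.65, and -0.28 as deposited; 1 lower at an unadjusted p under 0.05, and 0 of 1 by voom), with the smallest p for Ache (-0.72 ± 0.24) and Chat (-0.82 ± 0.36).

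Among striatal projection neuron genes 12 of 15 estimates were below 0 (median -0.47, or -0.10 as deposited), and at an unadjusted p under 0.05 there were 5 lower and 1 higher. By voom 2 of 12 were lower, Adcy5 (voom estimate -1.34 ± 0.21 SE) and the retinoid receptor gene Rarb (-1.57 ± 0.36). With library totals the Rarb call was lost (limma voom adjusted p = 0.0537). Of the factors of glutamatergic lineages 10 of 17 estimates were below 0 (median -0.15, or 0.22 as deposited), and at an unadjusted p under 0.05 there were 3 lower and 1 higher, with 1 of 9 lower by voom. The smallest p there were those of Bhlhe22 (limma adjusted p = 0.0526) and Neurod1 (-2.31 ± 0.52 SE). Bhlhe22 stood at 2.24 ± 0.262 RPKM in CS and 6.82 ± 0.351 RPKM in Con (SD, n = 3 each). Bhlhe22 was the gene that voom called lower with median scaling (limma voom adjusted p = 0.0145). That call was lost with library totals (0.0577).

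**Figure D3:**
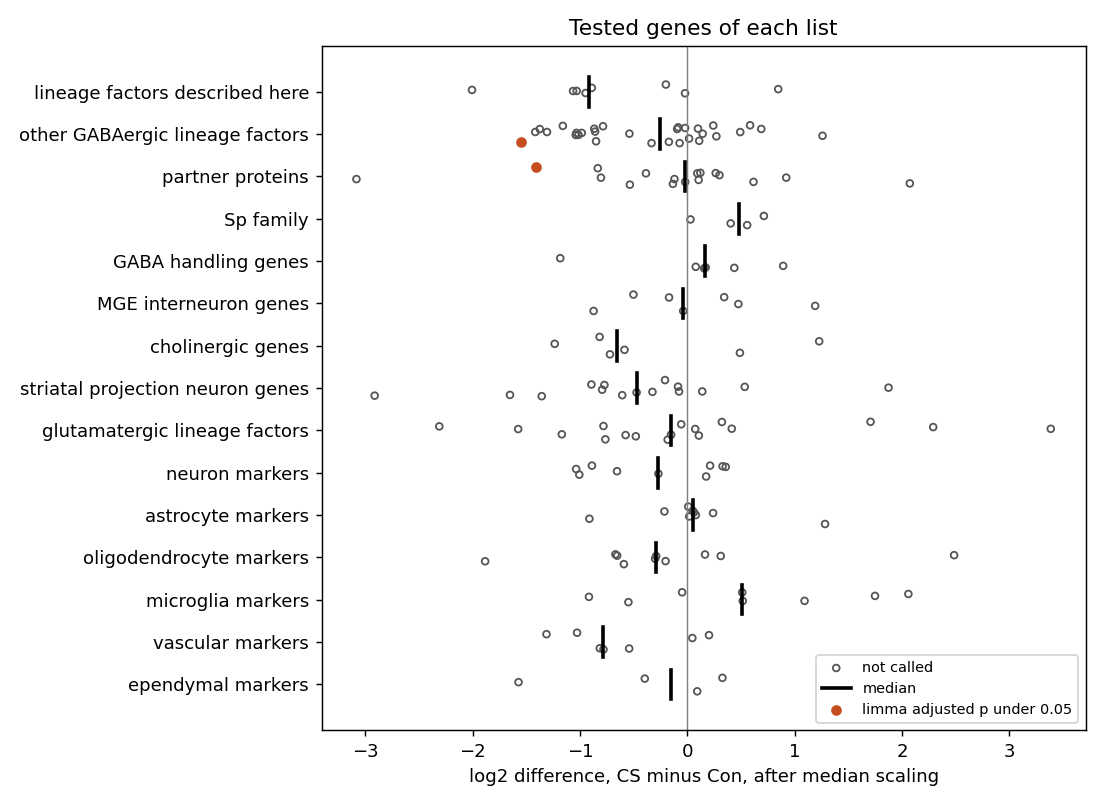
Log2 difference, CS minus Con, after median scaling (horizontal axis) of each tested gene of the lists; open circles were not called, filled circles had a limma adjusted p under 0.05, and bars are medians. One filled circle is a further GABAergic lineage factor and the other is Tle3, and the median of the 9 lineage factors, over the 8 that passed, lies at -0.92.

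Markers of cell classes were read in the same fit, and limma called 0 in any of these lists. Summed over its 9 genes, the neuron marker list spanned 627 to 832 RPKM in CS, against 1053 to 1294 RPKM in Con, and the 11 oligodendrocyte genes 103 to 199 against 221 to 321. The 7 vascular genes spanned 9.55 to 12.5 RPKM in CS, against 15.7 to 17.3 in Con. These 3 sums did not overlap between the groups, and those of the astrocyte, microglia and ependymal lists did. The vascular sum rests on few reads, between 10 (Cldn5) and 80 (Acta2) per gene over all libraries. Of the 7 vascular genes 5 had a read in every library, and 0 had groups that were apart. As deposited, the neuron sums stayed apart, at 755 to 934 in CS against 985 to 1050 in Con, and the oligodendrocyte and vascular sums overlapped. No marker of any list was without a read in all libraries. Of the neuron markers 5 of 9 had a lower estimate (3 lower at an unadjusted p under 0.05 and 3 by voom), led by Syt1 (-1.04 ± 0.23 SE) and Nefl (-1.01 ± 0.20), and as deposited 4 of 9 had. Lower estimates were had by 7 of 10 oligodendrocyte genes (1 lower at an unadjusted p under 0.05 and 1 by voom), 5 of 7 vascular genes (0 and 0), 2 of 9 astrocyte genes (1 and 0), 3 of 8 microglia genes (1 and 1) and 2 of 4 ependymal genes (1 and 1). As deposited, 4 of 10 oligodendrocyte genes lay lower. The neuron sum was set by the neurofilament genes Nefl, at 229 RPKM in CS against 464 RPKM in Con on average, and Nefm, at 222 against 398. Without these (left out after values were seen) the other 7 genes spanned 281 to 310 RPKM in CS and 266 to 312 RPKM in Con, which overlapped, and as deposited every CS library lay above Con. Tubb3 was higher in every CS library (66.3 ± 2.53 RPKM in CS and 58.8 ± 4.17 RPKM in Con, SD, n = 3 each). The oligodendrocyte and vascular sums after scaling, and Nefl and Nefm, moved in the same direction as Sp9, Zfhx3, Six3, Lhx6 and Meis2, and their part in those levels was not tested.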

How the data were processed

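The authors deposited RPKM for 29547 rows in 6 columns, 3 CS and 3 Con libraries. The submitters' processing notes name Trimmomatic 0.36 for trimming, featureCounts (Subread 1.5.1) for counting and GRCm38 (mm10) as the build. No aligner or strand setting is given in the sources used here, so reads of overlapping rows on opposite strands cannot be told apart. Per the labels, RNA was depleted of rRNA and libraries were stranded.

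RPKM times row length gave whole reads within 0.01 read for 100% of values above 0. Rows averaging 0.5 RPKM or more were tested by limma 3.58.1 in R 4.3.3 on log2(RPKM + 0.1), after subtracting each library's median deviation from the row means (lmFit, eBayes with trend, Benjamini-Hochberg over all rows, threshold 0.05). The alternative voom fit used 10463 rows with at least 60 recovered reads. Group labels came from the sample titles. The members, gene lists, tests and alternatives were chosen with earlier results of these data known. Genes named outside the 9 are every row overlapping a member, the 2 genes of each list with the smallest p, the other Dlx and Sp genes, Gad1, Gad2 and Slc32a1, and the 4 rows nearest in profile, leaving out predicted-gene, clone and pseudogene names. Of the rows overlapping a member, Gm27283, Gm27502 and Gm28528 (at Six3) held 2 reads each and Gm27953 (at Lhx6) held 1. The rule also names Rps6 (0.45 ± 0.21 SE, not called) and Malat1 (-0.06 ± 0.35). Markers it names that are not described further are Acta2, Pecam1, Cx3cr1, Gjb6, S100b, Ermn, Foxj1 and Rarres2. They held between 47 (Gjb6) and 770 (Cx3cr1) reads. Among them voom with median scaling called Cx3cr1 and Foxj1 lower (limma voom adjusted p = 0.0406 and 0.0479). Some other genes that the rule names are not reported here.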

Additional observations from a re-analysis of the deposited data

How the results depend on the processing

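Over all tested rows 163 were called lower and 36 higher in CS. The lower count was 87 with a pseudocount of 1, 30 as deposited, 73 with quantile normalization and 35 without the variance trend, where 111 were higher. Without a filter on low rows 87 were lower and 20 higher. By voom 645 were lower with median scaling, and with library totals, chosen after seeing the data, 253 were lower and 272 higher. With 1 library left out between 8 and 219 were lower and between 0 and 78 higher, fewest without CS library 1. With the replicate number as a block 0 rows were lower and 0 higher by limma (1288 and 403 at an unadjusted p under 0.05, against 1803 and 774 without the block). Same-numbered libraries did not deviate together (correlations of -0.070, 0.002 and 0.016), so the numbers were not taken as pairs.

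The median difference of the members, -0.92, was -0.55 as deposited and -0.62 by voom with library totals. With 1 library left out it lay between -1.02 and -0.74. The estimate of Lhx8 changed sign with a pseudocount of 1 (0.056), a mean RPKM of at least 2 (0.0089), as deposited (0.35), with quantile normalization (0.16) and by voom with library totals (0.32). That of Dlx1 did so as deposited (0.17) and by voom with library totals (0.15), as did that of Cir1 (0.10 and 0.15). With 1 library left out the estimates ran from -0.15 to 0.16 for Lhx8, from -0.43 to 0.045 for Dlx1, from -0.47 (without Con library 2) to 1.66 for Isl1 and from -0.18 to 0.47 for Slc32a1. The cause was not tested. Of 388 repeats over single genes, 340 kept their direction and their side of the threshold, 15 changed sign, 19 lost and 14 gained a call. The edgeR and DESeq2 alternatives were not run, because the deposited values are RPKM. Depth limits Sp8, Isl1 and Six3 most.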
